A study of Mus musculus with 3 samples.

Results

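The 9 genes described here, *Egfl7*, *Emcn*, *Clec14a*, *Mmrn2*, *Cd93*, *Mcam*, *Cdh13*, *Esm1* and *Rasip1*, are widely used to recognise blood vessel endothelium. They were chosen by name, and all 9 were found among the 24346 gene symbols measured. The libraries came from freshly isolated lung endothelial cells (ECs) of wild type C57BL/6J mice, males of 6 to 8 weeks per the study's methods, with no transgene or treatment. The adult mice received an antibody against VE-cadherin by injection, and dissociated lung cells were sorted as CD31+ and VE-cadherin+ but CD45- and podoplanin-, a gate meant to leave out leukocytes and lymphatic ECs. The libraries, called S38, S44 and S52, form 1 group of 3, and the labels do not say whether each came from a separate mouse. There is no second condition, so levels, their spread and their order are given without a test between groups. In bulk samples, fewer cells of a type and less RNA per cell cannot be told apart.

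ECs line all vessels, and their identity is carried by a set of surface receptors, adhesion molecules and matrix proteins that face the blood, the neighbouring cell or the basement membrane. Several of these proteins act together. Multimerin 2, the matrix glycoprotein encoded by *Mmrn2*, is a ligand of the C-type lectin receptors CLEC14A and CD93. *Egfl7* encodes a secreted matrix protein of the endothelium and carries the microRNA miR-126 inside an intron, and *Esm1* encodes the secreted proteoglycan endocan, a marker of sprouting tip cells. *Emcn* encodes endomucin, a sialomucin of capillary and venous endothelium. *Mcam* (CD146) and *Cdh13* (T-cadherin) encode adhesion molecules that mural cells also make. *Rasip1* encodes a cytoplasmic effector of the GTPase Rap1 that is needed for vessels to form a lumen, so it is neither a surface nor a matrix protein.

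The microRNAs inside *Egfl7* are shown first because their rows and that of the host gene gave very different values. RefSeq (GRCm38.p6) places the *Mir126a* hairpin of 73 bases at chr2:26591357-26591429 on the plus strand, and in GENCODE M21 it lies in intron 7 of the longest basic *Egfl7* transcript. *Mir126b* is annotated on the opposite strand of the same intron, at chr2:26591363-26591420. The capitals mark the seed, bases 2 to 8 of the mature microRNA, and the 3 seeds differ.
mmu-miR-126a-3p: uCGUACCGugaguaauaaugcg
mmu-miR-126b-3p: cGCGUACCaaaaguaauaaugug
mmu-miR-126b-5p: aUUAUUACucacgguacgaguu
Values are in FPKM (fragments divided by gene length and by library size), so levels of different genes can be compared per length. The host gene *Egfl7* was at 1027 (S38), 1127 (S44) and 1287 FPKM (S52). *Mir126a* was listed at 0 in S38, at 1913 FPKM in S44 and at 0 in S52, and *Mir126b* was listed at 0 in all 3. The libraries were selected for poly-A RNA and read as pairs of 51 bases, so these rows do not measure mature microRNAs. FPKM also divides by the length of the gene, which gives a hairpin a large value from very few fragments.

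All 9 genes had a mean of at least 1 FPKM, which 48.3% of all genes in the table reached. Means of at least 100 FPKM were found for 6 of the 9, against 3.64% of all genes. *Egfl7* was the highest, at 1147 ± 132 FPKM (SD, n = 3), rank 81 of 24346. *Cd93* followed at 307 ± 55.9 FPKM, *Mcam* at 245 ± 20.8 FPKM, *Clec14a* at 228 ± 45.5 FPKM, *Emcn* at 201 ± 58.3 FPKM and *Rasip1* at 139 ± 20.004 FPKM (SD, n = 3 for each). *Mmrn2* was at 72.2 ± 10.5 FPKM, *Esm1* at 27.7 ± 1.67 FPKM and *Cdh13* at 11.2 ± 2.54 FPKM (SD, n = 3 for each). Even *Cdh13* lay above 75.8% of all genes, at rank 5896. The median over the 9 means was 201 FPKM, against 368 FPKM over a reference list of 10 other endothelial genes (*Pecam1*, *Cdh5*, *Tek*, *Tie1*, *Kdr*, *Erg*, *Esam*, *Robo4*, *Cldn5* and *Vwf*).

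**Figure D1:**
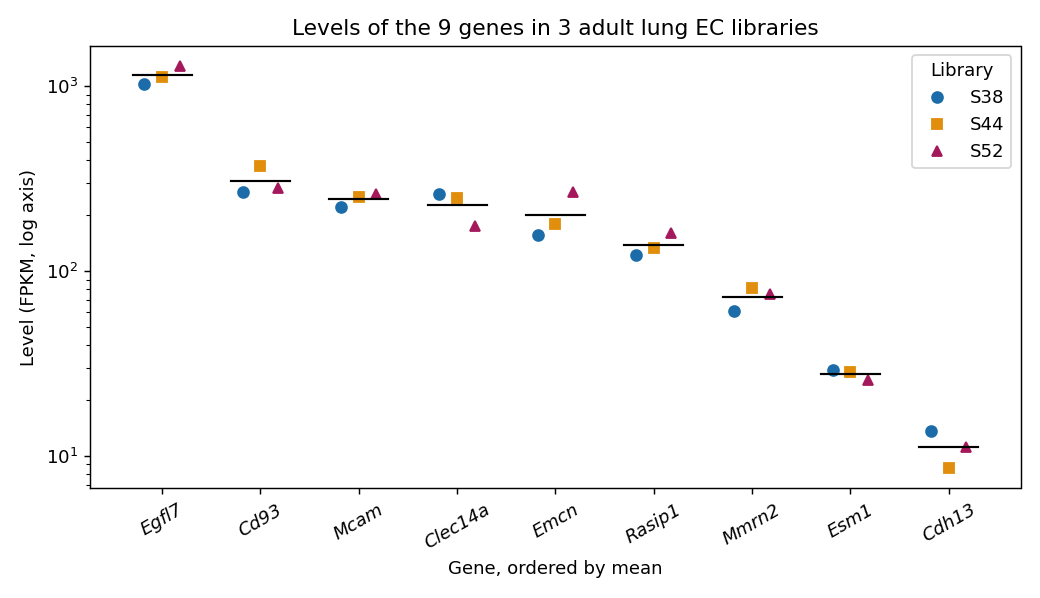
Level of each of the 9 genes in FPKM on a log axis, with 1 point per library (S38, S44, S52) and a bar at the mean of the 3. *Egfl7* stands apart, at 1027 FPKM or more in every library, 5 genes share the range from 123 to 371 FPKM, and *Esm1* and *Cdh13* lie at the bottom.

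The order of the genes was firm at its ends and open in the middle. *Egfl7* was above every other member in 3 of 3 libraries, its lowest value of 1027 FPKM facing a highest value of 371 FPKM for *Cd93*. *Rasip1* lay above *Mmrn2*, *Mmrn2* above *Esm1*, and *Esm1* above *Cdh13* in 3 of 3 libraries without overlap of their ranges. Between *Cd93* and *Mcam* the ranges were separated only by the gap from 268 to 262 FPKM, and the means differed by less than the sum of their SDs. *Mcam* was above *Clec14a* in 2 of 3 libraries, and *Clec14a* above *Emcn* in 2 of 3. *Emcn* exceeded *Rasip1* in each library, although the lowest value of *Emcn* (156 FPKM) was under the highest of *Rasip1* (161 FPKM).

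The step between low values put the depth at about 37900000, 39100000 and 34100000 fragments for S38, S44 and S52. With it, 80.0%, 76.9% and 75.1% of low values came within 0.15 of whole fragments. The depth was chosen to bring these same values near whole fragments, so the shares are no independent check and the depths are estimates. By the length of their longest transcript, the members would hold from 1214 fragments (*Cdh13* in S44) to 94425 fragments (*Cd93* in S44). The counting error of the thinnest library was 2.87% for *Cdh13*, 2.43% for *Esm1* and at most 1.07% for the others, while the coefficient of variation over libraries ran from 6.01% (*Esm1*) to 28.9% (*Emcn*). At these estimated depths, the libraries therefore differed by more than counting error for each member.

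S52 stood apart from the other libraries in genes of other lung cells. The summed level of 4 platelet genes was 1692 (S38), 1345 (S44) and 37.96 FPKM (S52), and that of 5 alveolar type 2 genes was 3756, 3156 and 760 FPKM. The 6 myeloid genes summed to 1071, 813 and 184 FPKM, most of it *Lyz2*, with *Itgam* and *Adgre1* under 1 FPKM in every library. *Ptprc* fell too, at 4.30, 2.06 and 0.434 FPKM. *Csf1r*, at 1.25, 1.85 and 1.30 FPKM, and *Cd68*, at 17.0, 27.4 and 16.7 FPKM, were near their S38 values in S52. The 6 mural genes summed to 120, 62.0 and 118 FPKM, the 4 alveolar type 1 genes to 348, 373 and 273 FPKM and the 4 fibroblast genes to 73.1, 56.0 and 41.9 FPKM. Most of the alveolar type 1 sum was *Hopx*, at 294, 332 and 201 FPKM. *Ager* and *Rtkn2* were highest in S52, and *Aqp5* was lowest there. The 10 endothelial reference genes were all above 1 FPKM in every library, with medians of 378, 393 and 379 FPKM. Of the lymphatic endothelial markers, *Prox1* had a mean of 0.301 FPKM and *Pdpn* of 2.44 FPKM, whereas *Lyve1* was at 509 ± 107 FPKM and *Flt4* at 22.4 ± 2.28 FPKM (SD, n = 3).

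As deposited, spread over libraries was widest for *Emcn* and *Cdh13*, the 2 of 9 members whose highest and lowest values differed by more than 1.5-fold. Of all genes averaging 1 FPKM or more, 41.7% did so, and of those averaging 100 FPKM or more, 34.3%. *Emcn* was at 156 (S38), 181 (S44) and 267 FPKM (S52), a ratio of 1.71 that came under 1.5 when either S38 or S52 was left out. *Cdh13* was at 13.7 (S38), 8.59 (S44) and 11.2 FPKM (S52), a ratio of 1.59 that did so when either S38 or S44 was left out. With each library rescaled to the same sum, the ratio was 2.21 for *Cdh13*, 1.82 for *Clec14a* and 1.67 for *Emcn*. *Clec14a*, at 1.48 as deposited, also passed 1.5 with the same upper quartile, at 1.59.

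The members did not move together between the libraries. Of the 9, 4 had their highest value in S52, against 33.9% of genes averaging 1 FPKM or more, and 2 of the 9 had their lowest value there, against 46.3%. *Egfl7*, *Emcn* and *Rasip1* were highest in S52 as deposited and under all 3 rescalings, while *Mcam*, at 222, 253 and 262 FPKM, lost this place to S38 or S44 under rescaling to a common sum or a common upper quartile. *Rasip1* was at 123 (S38), 133 (S44) and 161 FPKM (S52). *Clec14a* went the other way, at 261, 248 and 176 FPKM, and was lowest in S52 under every scaling. *Esm1* was nearly level, at 29.0, 28.3 and 25.8 FPKM. *Cd93*, at 268, 371 and 282 FPKM, and *Mmrn2*, at 60.6, 81.2 and 74.8 FPKM, were highest in S44, a place that both lost under rescaling to a common sum.

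A ratio of 2 genes within a library does not depend on how that library was scaled. The ratio of *Emcn* to *Clec14a* was 0.598 (S38), 0.731 (S44) and 1.51 (S52), so the higher of the pair changed. Relative to *Pecam1*, the CD31 gene, *Emcn* was at 0.139, 0.149 and 0.230 and *Clec14a* at 0.232, 0.204 and 0.152. *Egfl7* was near *Pecam1* in all 3, at 0.912, 0.927 and 1.11. On the scale of log2(FPKM + 1), the difference between S52 and S38 was 0.77 for *Emcn*, 0.39 for *Rasip1*, 0.33 for *Egfl7* and -0.56 for *Clec14a*. The median over the 9 members was 0.24, beside -0.01 over the reference list and -0.08 over all genes averaging 1 FPKM or more. Over genes averaging 100 FPKM or more it was 0.07. The lower platelet and alveolar type 2 values of S52, and its lower myeloid sum, which is mostly *Lyz2*, move with these differences. Their part in them was not tested.

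**Figure D2:**
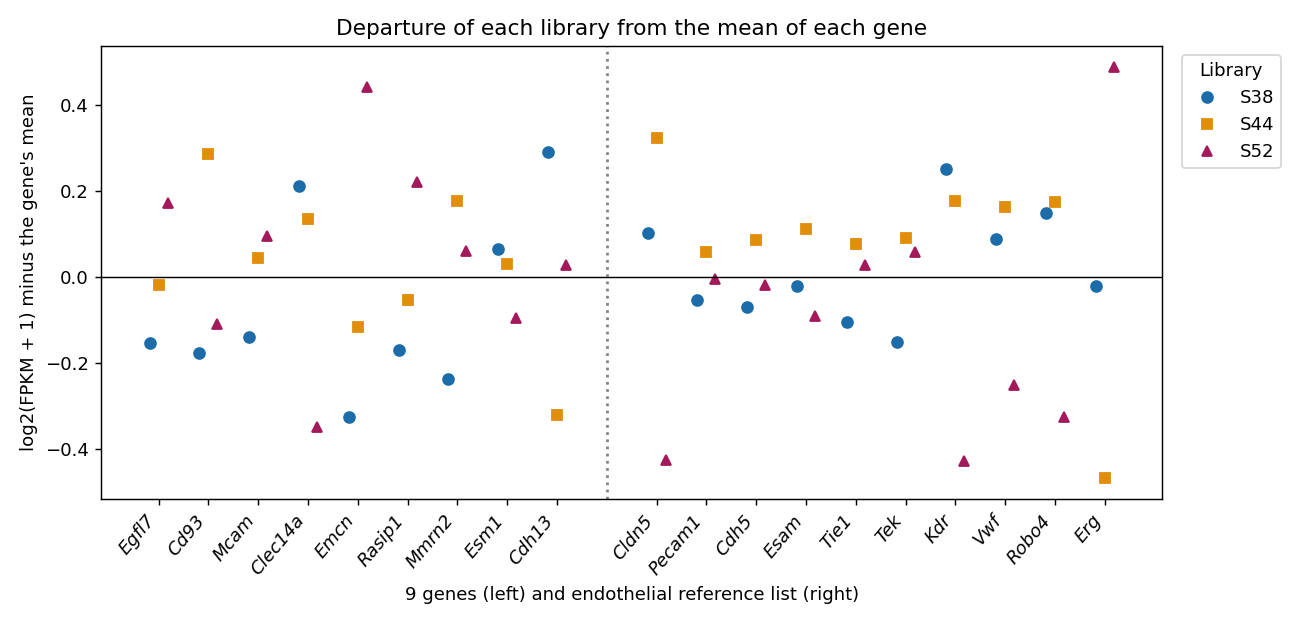
Departure of each library from the mean of the gene on the log2(FPKM + 1) scale, for the 9 genes on the left and the endothelial reference list on the right, with 1 point per library. *Emcn* and *Erg* have S52 at the top, *Clec14a*, *Cldn5* and *Kdr* have it at the bottom, and *Esm1* has the smallest departures of the 9 genes.

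*Cdh13* had its lowest value in the library where mural genes were lowest. T-cadherin is a cadherin held by a lipid anchor, without the cytoplasmic tail through which other cadherins bind catenins, and smooth muscle makes it too. *Cdh13* was lowest in S44, and so were all 6 mural genes, of which 4 were highest in S52 and not, like *Cdh13*, in S38. Both genes of smooth muscle contraction were highest in S38, with *Myh11*, the smooth muscle myosin gene, at 11.5, 4.72 and 10.5 FPKM and *Acta2* at 90.3, 46.7 and 79.7 FPKM. *Mcam*, which pericytes also express, was lowest in S38 as deposited. After rescaling to a common sum, *Mcam* was lowest in S44 and highest in S38 (192, 158 and 184), like *Cdh13*. That rescaling put 7 members lowest in S44 and 5 highest in S38, with *Esm1* (25.2, 17.6 and 18.2) among both. Over all genes averaging 1 FPKM or more, it put the median difference between S44 and S38 at -0.44 on the log2 scale. The order was therefore not particular to *Mcam* and *Cdh13*. The shares of all genes lowest in S44 or highest in S38 were not computed, either as deposited or after this rescaling. The part of mural cells in the *Cdh13* values was not tested. *Cdh5*, encoding the VE-cadherin against which the injected antibody is directed, was at 921 ± 51.5 FPKM (SD, n = 3). The difference of *Cdh13* from *Cdh5* was -6.26 ± 0.39 on the log2(FPKM + 1) scale (SD, n = 3). *Cdh2*, the N-cadherin gene, was at 0.485 ± 0.182 FPKM (SD, n = 3), below *Cdh13* in each library. *Cdh1*, the cadherin gene of epithelia, was at 7.48 (S38), 3.77 (S44) and 1.64 FPKM (S52), below *Cdh13* in each library. *Adipoq*, which encodes the circulating ligand adiponectin, was at 0.147 FPKM in S38, listed at 0 in S44 and at 0.793 FPKM in S52.

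*Clec14a*, *Cd93* and the thrombomodulin gene *Thbd* belong to the same family of C-type lectin receptors, and *Thbd* was the highest of the family in each library. *Thbd*, whose product is a brake on coagulation, was at 890 (S38), 1121 (S44) and 444 FPKM (S52). The fourth member of the family, *Cd248*, which is known from pericytes and fibroblasts, had a mean of 0.716 FPKM. *Cd93* exceeded *Clec14a* in 3 of 3 libraries, by a ratio of 1.03 (S38), 1.499 (S44) and 1.595 (S52). Their shared ligand gene *Mmrn2* was lower than both in every library, by 1.64 ± 0.43 against *Clec14a* and 2.07 ± 0.15 against *Cd93* on the log2(FPKM + 1) scale (SD, n = 3). *Igfbp7*, which encodes another ligand of CD93, was at 992, 1015 and 482 FPKM. Its ratio to *Cd93* was 3.70, 2.73 and 1.71, lowest in S52. *Cd93* is also made by myeloid cells. Its highest value was in S44, as were those of the myeloid genes *Csf1r*, *Itgam* and *Cd68*. *Ptprc*, *Adgre1*, *Lyz2* and the summed myeloid list were highest in S38. All endothelial reference genes but *Kdr* and *Erg* were highest in S44 too. The part of myeloid cells in the *Cd93* values was not tested.

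*Mmrn2* was the highest of the multimerin and emilin genes in each library. Its nearest relative in name, *Mmrn1*, encodes a protein known from platelets, though not only from them, and was at 19.4 (S38), 17.6 (S44) and 0.236 FPKM (S52). *Ppbp*, a platelet chemokine gene, was at 1054, 778 and 16.0 FPKM in that order. The part of platelets or of any other cells in *Mmrn1* was not tested. *Emilin1*, a gene of elastic fibres, was at 20.1 ± 6.98 FPKM (SD, n = 3), and *Emilin2* and *Emilin3* had means of 0.790 and 0.236 FPKM.

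*Mcam* and *Bcam* encode adhesion receptors of the immunoglobulin superfamily that bind laminins, and *Bcam* was the higher of the pair. *Bcam* was at 360 (S38), 425 (S44) and 278 FPKM (S52), above *Mcam* in 3 of 3 libraries. The difference of *Mcam* from *Bcam* was -0.51 ± 0.37 on the log2(FPKM + 1) scale (SD, n = 3) and smallest in S52, where *Bcam* was lowest. *Alcam* was at 4.94 ± 0.944 FPKM (SD, n = 3). *Lama4*, encoding a laminin chain of vessel basement membranes and a ligand of MCAM, was at 9.75 ± 0.481 FPKM (SD, n = 3), so that *Mcam* was 22.2-fold, 27.5-fold and 26.1-fold above it in S38, S44 and S52.

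Among the sialomucins, *Podxl*, at 342 ± 19.4 FPKM (SD, n = 3), was above *Emcn* in each library, and *Cd164*, at 102 ± 10.7 FPKM (SD, n = 3), was below it. *Cd34* was at 254, 314 and 184 FPKM, above *Emcn* in S38 and S44 and below it in S52. This was the only one of 19 pairs of a member and a related gene whose order differed between libraries. In 13 of the other 18 pairs the member was the higher gene in 3 of 3 libraries. With 3 libraries an exact two-sided sign-flip permutation test cannot give a p below 0.25, which all 18 pairs reached. *Podxl2* was at 1.10 ± 0.178 FPKM (SD, n = 3). *Egfl8*, the paralogue of *Egfl7*, was at 3.297, 4.415 and 11.005 FPKM, highest in S52 like *Egfl7* and lower than it by 7.45 ± 0.62 on the log2(FPKM + 1) scale (SD, n = 3).

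**Figure D3:**
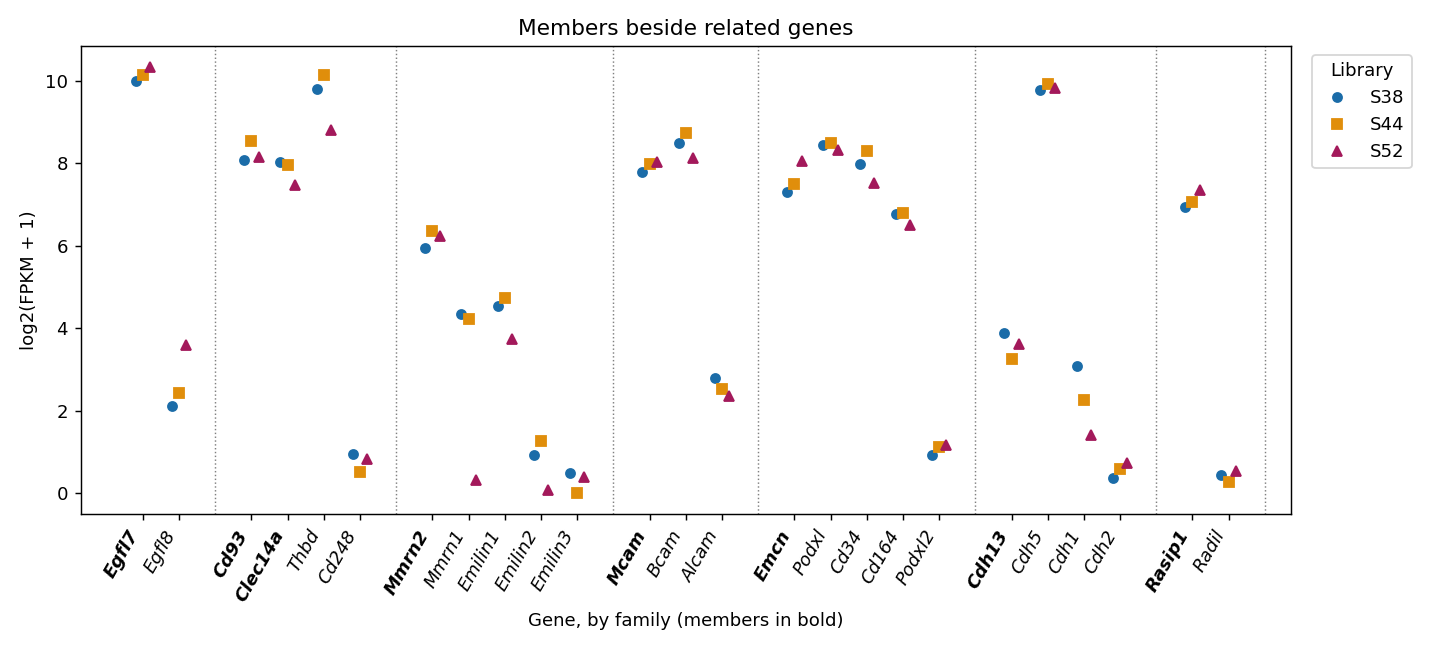
All members but *Esm1*, for which no related gene was listed, in bold beside related genes on the log2(FPKM + 1) scale, with 1 point per library, grouped by family. *Egfl7* and *Rasip1* are far above *Egfl8* and *Radil*, *Thbd* is above *Cd93* and *Clec14a*, *Cdh5* is above *Cdh13*, and *Mmrn1* drops only in S52.

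All 6 listed partner genes of *Rasip1* were above 1 FPKM in each library. The Rap1 GTPase genes *Rap1a* and *Rap1b* were at 182 ± 28.0 and 469 ± 30.9 FPKM (SD, n = 3). *Arhgap29*, whose product restrains RhoA together with RASIP1, was at 136 ± 4.88 FPKM (SD, n = 3), close to *Rasip1* itself. *Heg1*, a receptor gene of EC junctions that anchors RASIP1, was at 57.2 ± 1.80 FPKM (SD, n = 3). The cerebral cavernous malformation genes *Ccm2* and *Krit1* were at 18.8 ± 4.30 and 8.95 ± 1.07 FPKM (SD, n = 3). *Radil*, the paralogue of *Rasip1*, had a mean of 0.338 FPKM and stayed under 1 FPKM in each library. In all, 13 of the 14 partner genes and 12 of the 17 related genes had a mean of at least 1 FPKM, beside 48.3% of all genes. Among the partners linked to *Egfl7*, *Notch4* was at 49.8 ± 4.85 FPKM, *Notch1* at 42.0 ± 6.14 FPKM and *Loxl2*, a collagen and elastin cross-linking enzyme, at 4.18 ± 0.317 FPKM (SD, n = 3 for each). Of the VEGF genes linked to *Esm1*, *Vegfa* was at 134 ± 4.14 FPKM (SD, n = 3). *Kdr*, the VEGF receptor gene, was at 380, 360 and 237 FPKM, lowest in S52, as were 46.3% of genes averaging 1 FPKM or more. *Esm1* was lowest there as deposited but lowest in S44 after rescaling to a common sum.

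**Figure D4:**
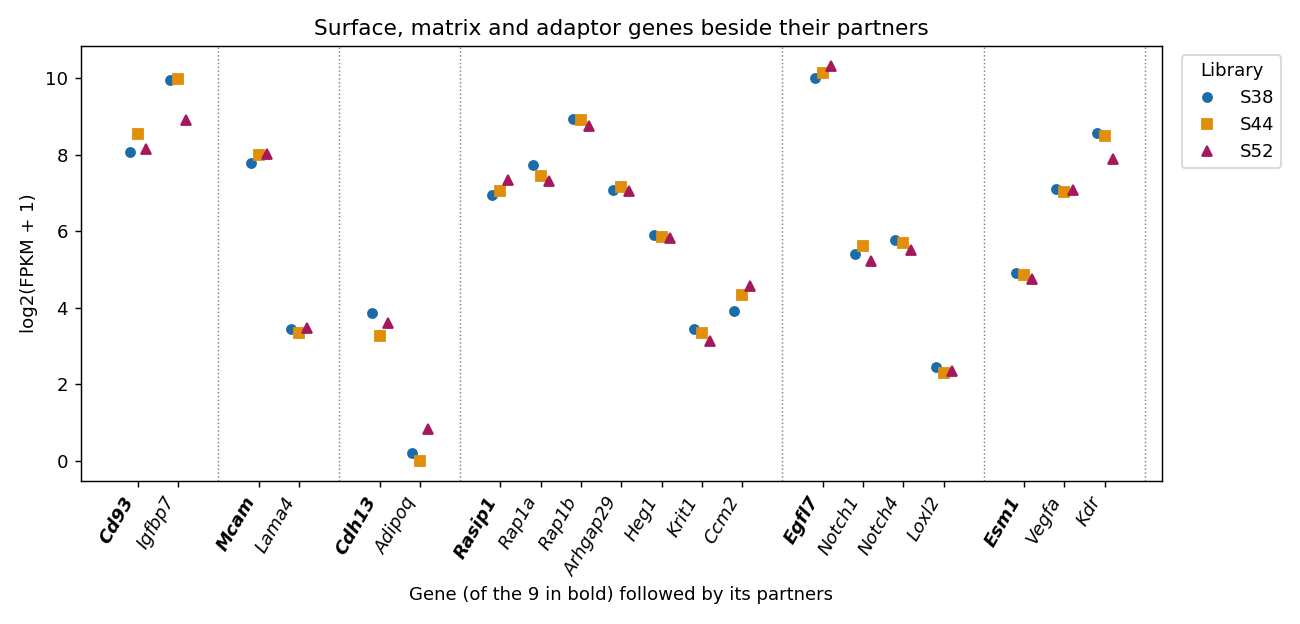
Members (bold) followed by the genes of their partners on the log2(FPKM + 1) scale, with 1 point per library. *Igfbp7* and *Kdr* are lowest in S52, *Heg1*, *Arhgap29*, *Vegfa* and *Lama4* are nearly level, and *Adipoq* is the only partner with a mean under 1 FPKM.

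The 9 genes lie on 8 chromosomes, and in GRCm38 (mm10) only *Egfl7* (chr2:26580014-26593120, plus strand) and *Cd93* (chr2:148436640-148443563, minus strand) share one. *Clec14a* (chr12:58264720-58269290, minus strand) has 1 exon and *Cd93* has 2. *Cdh13* (chr8:118283733-119324921, plus strand) spans 1041189 bp with 14 exons. *Emcn* lies at chr3:137341067-137432185, *Mmrn2* at chr14:34375465-34404287, *Mcam* at chr9:44134469-44142727, *Esm1* at chr13:113209659-113218098 and *Rasip1* at chr7:45627488-45639093, all on the plus strand. For *Emcn*, *Clec14a*, *Mmrn2*, *Mcam*, *Cdh13* and *Esm1*, no window of 51 bases in the longest transcript occurs in a transcript of another gene. For *Rasip1*, 1086 of 3152 windows (34.5%) also occur in transcripts of *Izumo1* or of the antisense genes *A030001D20Rik* and *Gm45437*. The libraries carry no strand information, so fragments of these windows could come from any of these genes. The share of windows does not give the share of the *Rasip1* value that they hold, which was not measured. *Izumo1* itself was at 0.4528, 1.0764 and 0.9904 FPKM, and the antisense genes were not among the gene symbols measured. For *Egfl7*, 126 of 1341 windows (9.40%) occur in *Gm20532*, a gene annotated across it on the same strand. *Gm20532* was not among the gene symbols measured either. For *Cd93* 41 of 6627 windows (0.619%) occur elsewhere. *Esm1* lies within the span of *Gzmk* on the opposite strand, without overlap of exons.

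Promoter windows of 300 bases (250 before the start of a transcript and 50 after it, RefSeq GRCm38.p6) were found for 6 of the 9 genes, and 3 of them belong to alternative starts of *Egfl7*. They were searched on both strands for CAGGAAG, which holds the core bound by ETS factors such as ERG. This motif was present in 4 of the 8 windows, from the 3 genes *Egfl7*, *Emcn* and *Rasip1*, against 13.3% of 32851 windows of the same length. The variant CCGGAAG was in 0 of the 8, against 8.86% of all windows. The TATA box, searched as TATAAA, was in 0 of the 8, against 13.6%. The windows of *Mcam*, *Clec14a* and *Esm1* and the third of *Egfl7* held no match, which says only that these letters are not there. *Erg* was at 59.2, 43.1 and 84.8 FPKM, highest in S52 and lowest in S44. As deposited, *Egfl7*, *Emcn*, *Rasip1* and also *Mcam*, whose window held no match, were highest in S52 and lowest in S38. A match describes letters and is not evidence of a bound site. For each of the 3 genes 1 matching window is shown, 5′ to 3′ on the strand of the gene, with capitals on the motif or its reverse complement.
Egfl7 (chr2:26583615-26583914, plus strand, match 81 bases before the start): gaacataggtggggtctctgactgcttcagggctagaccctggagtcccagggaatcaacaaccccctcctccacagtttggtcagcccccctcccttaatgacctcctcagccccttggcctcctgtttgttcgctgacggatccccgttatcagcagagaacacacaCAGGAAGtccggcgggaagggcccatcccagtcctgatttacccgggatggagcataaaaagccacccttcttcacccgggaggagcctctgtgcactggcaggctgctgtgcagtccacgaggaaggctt
Emcn (chr3:137340828-137341127, plus strand, match 174 bases before the start): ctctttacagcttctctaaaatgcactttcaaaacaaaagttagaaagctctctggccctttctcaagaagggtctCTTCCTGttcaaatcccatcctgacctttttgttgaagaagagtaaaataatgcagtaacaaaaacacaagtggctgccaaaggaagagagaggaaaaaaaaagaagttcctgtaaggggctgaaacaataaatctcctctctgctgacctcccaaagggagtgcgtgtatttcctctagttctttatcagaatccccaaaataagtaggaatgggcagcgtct
Rasip1 (chr7:45627287-45627586, plus strand, match 91 bases before the start): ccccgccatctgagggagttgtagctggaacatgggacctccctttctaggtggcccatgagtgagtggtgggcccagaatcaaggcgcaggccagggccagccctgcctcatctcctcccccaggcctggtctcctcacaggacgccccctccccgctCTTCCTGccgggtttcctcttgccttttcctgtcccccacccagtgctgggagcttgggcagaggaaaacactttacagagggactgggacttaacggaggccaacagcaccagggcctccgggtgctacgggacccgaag
The windows differed in base composition. Of those shown, *Emcn* had 41.0% G and C with 2 CpG, *Egfl7* 59.0% with 8 CpG and *Rasip1* 63.7% with 9 CpG, beside a median of 52.7% G and C over all windows. The window of *Mcam* had the most G and C of the 8, at 72.7% with 29 CpG, and the third window of *Egfl7* the most CpG, at 31 with 67.3% G and C.

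The gene most like each member was taken as the one with the smallest root mean square difference of log2(FPKM + 1) over the 3 libraries, a likeness of level and not of function. For *Cd93* it was *Cd151*, a tetraspanin gene, at 291, 350 and 286 FPKM with a difference of 0.0824. For *Mcam* it was *Id3*, an inhibitor of helix-loop-helix factors, at 230, 244 and 271 FPKM with a difference of 0.0496. The others were *Ptma* for *Egfl7*, *Hnrnph1* for *Emcn*, *Sh3bgrl3* for *Clec14a*, *Gm7367* for *Mmrn2*, *Zfp68* for *Cdh13*, *Naa10* for *Esm1* and *Smagp* for *Rasip1*. Within a difference of 0.25, *Egfl7* had 12 genes, *Emcn* 27 and *Esm1* 524, so many genes were about as near to *Esm1* and few to *Egfl7*.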

How the data were processed

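For the 3 libraries of adult lung ECs, the values deposited by the authors are FPKM by gene symbol (mm10). The submitters' processing notes list Trimmomatic 0.36, TopHat2 2.1.0 and Cufflinks 2.2.1, whereas the study's methods describe STAR and HTSeq for counts. No source used here says which tool made the FPKM values. The columns summed to 1153890, 1603600 and 1419350 FPKM.

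Values were read as deposited with Python 3.11.15 and pandas 2.3.3, and log2 values use a pseudocount of 1 FPKM, which understates differences of low genes. FPKM are not counts, so no count test was run. Genes that have 1 basic transcript in GENCODE M21, 7077 in all, gave the depth by a method tested on simulated data. Members and lists (related genes, partners, endothelial reference, other cell types) were chosen with earlier results of these data known. Named genes are the members, the listed genes and the gene nearest each member. Overlapping genes, microRNA genes and the motif search fall outside this rule and were added after values were seen. Alternatives were leaving out each library, 3 rescalings, and other thresholds and pseudocounts. No difference between groups was tested. No 2 libraries shared a value above 0 for any gene, so none is a copy of another. They were counted as 3 samples after the labels, and their spread may be technical.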

Additional observations from a re-analysis of the deposited data

How the results depend on the processing

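The median level of the 9 members, 201 FPKM, lay between 169 FPKM (without S52) and 212 FPKM (without S38) when 1 library was left out. It was 181 FPKM with the median over libraries in place of the mean. After rescaling each library to a sum of 1000000 it was 146 FPKM. All 3 columns summed to more than 1000000 as deposited, so this rescaling lowers every level by the choice of sum alone. The count of members past 1.5-fold, 2 as reported, ran from 0 (without S38) to 1 (without S44 or without S52), was 0 at 2-fold, and was 3 after rescaling to a common sum or a common upper quartile. Fewer libraries can only lower this ratio. The median difference from the endothelial reference list was -0.96 on the log2 scale and ran from -1.19 (without S52) to -0.88 (without S38). The number of members at 100 FPKM or more was 6 with each library left out and under each rescaling, 7 at a threshold of 50 FPKM and 5 at 200 FPKM. Partners and related genes at 1 FPKM or more, a level that 48.3% of all genes reached, numbered 25. They numbered 31 and 18 at thresholds of 0.1 and 10 FPKM. No share of all genes was computed at the thresholds of 0.1, 10, 50 and 200 FPKM or at 2-fold. None was computed with a library left out or after rescaling either, so these counts have no background beside them. Of the recomputed levels of single members, 46 stayed within 1 SD over the libraries. The other 8, all after rescaling to the lower common sum, did not. Of the recomputed differences of pairs, 81 did and 7, all with a pseudocount of 0.1 FPKM, did not, and no difference changed sign. Leaving out 1 of 3 libraries cannot move a mean by 1 SD, so those recomputations were bound to stay within it. The rescalings to a common upper quartile or a common reference list median keep the average library, so they could move mean levels little. These counts therefore do not measure how robust the levels are. The share of all genes past 1.5-fold, 41.7% as reported, was 48.9% among genes above 0 in every library. After rescaling to a common sum *Cdh13* passed 2-fold, at 2.21. Rescaling to a common sum moved the median difference between S44 and S38 over genes averaging 1 FPKM or more from -0.03 to -0.44 on the log2 scale. The cause of these shifts was not tested. The small number of libraries, 3 of 1 condition, limits every statement of order.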
